A study of Homo sapiens with 38 samples.

Results

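Of 10865 genes expressed in RKO cells, a human colorectal cancer line of epithelial origin, 287 stood on the same side of the vehicle in all 6 libraries from cells given an inhibitor of the histone demethylase LSD1. The 6 libraries came from cells given NCD38, NCD38-β2P4 or NCD38-β2PIPP, each at 2 μM, with RNA taken on day 30 or day 4, and each was set against the DMSO library of its own day (vehicle at 0.1%). That dose is the labels' for both days, while the methods text writes the day 4 treatment in millimolar, and which is right could not be settled here. The log2 ratio of FPKM + 1 was above 0 in all 6 comparisons for 139 genes and below 0 in all 6 for 148 genes. FPKM is the number of sequenced fragments per kilobase of transcript scaled to library depth, so levels may be compared between genes per unit of length. Genes entered if their name occurred once in the table and their mean FPKM over the 8 libraries was at least 1. The RNA libraries, 1 for each of the 4 treatments on each of the 2 days, were 8 of 38 samples in the series. No agent or genetic change other than the listed compounds was given in the labels, all libraries came from the 1 cell line, and nothing said that any 2 of them were repeat cultures of a condition.

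LSD1, encoded by KDM1A, removes methyl groups from mono- and dimethylated lysine 4 of histone H3 through a flavin cofactor. It works inside complexes with the scaffold CoREST (RCOR1) and the deacetylases HDAC1 and HDAC2, at promoters and enhancers, where loss of these marks goes with gene silencing. NCD38 inactivates the enzyme. In the conjugates NCD38 carries a pyrrole-imidazole polyamide, a small molecule that reads the minor groove of DNA, joined through a pair of β-alanines. The P4 polyamide is made of pyrroles alone and was designed for stretches of A and T. The PIPP polyamide has an imidazole in place of a pyrrole and was designed for a CG flanked by A or T. The question asked here was which transcripts moved together under any of the 3 inhibitors and at either time.

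The share of genes higher in all 6 ratios was 1.28% and the share lower in all 6 was 1.36%, and these were the values by which the 287 genes were chosen, so they carry no test. The 3 ratios of a day share 1 DMSO library, so 6 ratios of a sign are not 6 independent observations. Among the other genes, 915 were higher in 1 ratio, 1896 in 2, 2800 in 3, 3037 in 4 and 1901 in 5. In a further 177 genes no ratio was above 0, of which 148 were below 0 in all 6 and the rest held at least 1 ratio of exactly 0. Most genes therefore had ratios of both signs.

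**Figure D1:**
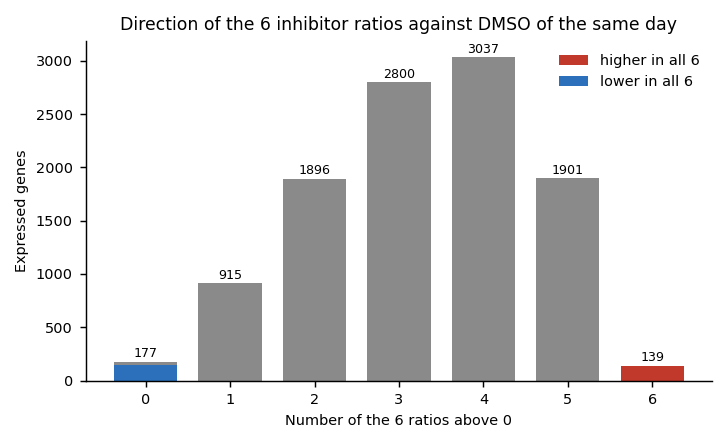
Number of expressed genes (vertical axis, 10865 in all) by the number of their 6 log2 ratios of FPKM + 1 against DMSO of the same day that were above 0 (horizontal axis). The 139 genes above 0 in all 6 form the last bar, and of the 177 genes in the first bar 148 were below 0 in all 6.

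Libraries differed in depth and in their centre. Read totals were not used here. The depth, estimated from the counting steps in low FPKM values, lay between 12800000 and 23500000 fragments per library. The median log2 ratio over all expressed genes lay between -0.014 and 0.175 in 5 of the 6 inhibitor libraries and was -0.209 in the NCD38 library of day 4, which stood apart from the others in this respect. When each library was rescaled to a common centre, 92 of the 139 higher genes and 85 of the 148 lower genes kept their direction in all 6 ratios. Without the NCD38 library of day 4, 1651 genes were higher and 536 lower in the remaining 5 ratios. The summed FPKM of the epithelial markers EPCAM, KRT8, KRT18 and KRT19 lay between 87.1 and 143 in the 8 libraries, that of 9 fibroblast markers was at most 0.027 and that of 7 endothelial markers at most 0.0152. Of the 4 epithelial markers 1 was under 1 FPKM in all libraries. Of 10 leukocyte markers 6 were at 0 in all libraries and 8 were under 1 in all libraries; the sum of the list, 201 to 764, was held almost wholly by CD68, a lysosomal protein that many cell types make.

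In the test across both days 0 genes were called higher (0% of those tested) and 1 gene was called lower (0.0092%) at an adjusted p under 0.05 (limma, day as block, Benjamini-Hochberg over 10865 genes). At an unadjusted p under 0.05 there were 21 higher and 38 lower genes. The p-values measure the spread over 3 compounds and 2 days against 2 DMSO libraries, not the spread of repeat cultures. The called entry was SNORA1, a small nucleolar RNA that guides pseudouridylation of ribosomal RNA and lies in an intron of a host gene. SNORA1 was listed at 7.83 FPKM with DMSO on day 30 and 9.69 with DMSO on day 4, and was listed at 0 in all 6 inhibitor libraries. The difference was -3.28 on the log2(FPKM + 1) scale (SE 0.14, adjusted p = 2.1e-04, limma). An exact permutation of the DMSO label within days gave p = 0.0625 (two-sided), the smallest that the 16 arrangements allow. With a pseudocount of 0.01 the adjusted p was 0.9999, and over the other settings in which the entry was tested it lay between 4.9e-05 and 0.0457. A value of exactly 0 can be a failed estimate for an RNA of this length, so no fold is given.

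The 10 genes that the naming rule allowed from the test came down to this entry. RNY4, a short RNA of the Ro particle with many near-identical genomic copies, was singled out after its values were seen and showed the opposite pattern. It was listed at 0 in both DMSO libraries and at 25.9, 34.9 and 19.0 FPKM under NCD38, NCD38-β2P4 and NCD38-β2PIPP of day 30, and at 94.8, 172 and 44.5 under those of day 4. Inhibitor values are given in that order throughout. Its adjusted p was 0.053 in the same test (limma), and it passed with a pseudocount of 0.1 (0.0045), with a pseudocount of 0.01 (0.00045), after rescaling (0.026) and without the NCD38-β2P4 library of day 4 (0.024), with a range of 0.00045 to 0.756 over all settings. Among the other members the adjusted p of the test across both days was 0.9999 throughout.

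Differences were small for most members. The median over genes of the mean of the 6 log2 ratios was 0.26 among the 139 higher genes and -0.22 among the 148 lower genes, against 0.03 over all expressed genes. The mean was at least 1 in size for 5 higher genes (RNY4, SNORA8, SNORA23, SNORD15B and MIR3648) and 3 lower genes (MIR3918, SNORA1 and MIR3064), all of them short RNAs, and at least 0.5 for 17 and 13. Over all 10865 expressed genes these sizes were reached by 158 and 325. All 6 ratios were at least 0.1 in size for 29 higher and 28 lower genes, and at least 0.5 for 3 and 3. Whatever the signs of the ratios, 1727 and 22 of all expressed genes reached these sizes. At the other end, the smallest of the 6 ratios was under 0.02 for 45 higher and 42 lower genes, which places them at the edge of the rule. The same held for 3505 of the 10865 expressed genes, so it is not particular to the members. Set against the counting error of the estimated fragments (95% half-width), all 6 ratios were beyond it for 3 higher genes (GANAB, RPL23A and SYNE2) and 21 lower genes, and none of the 6 was beyond it for 12 and 15. Among all 10865 expressed genes, whatever the signs of their ratios, these counts were 921 and 681. The half-widths cover counting error only.

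**Figure D2:**
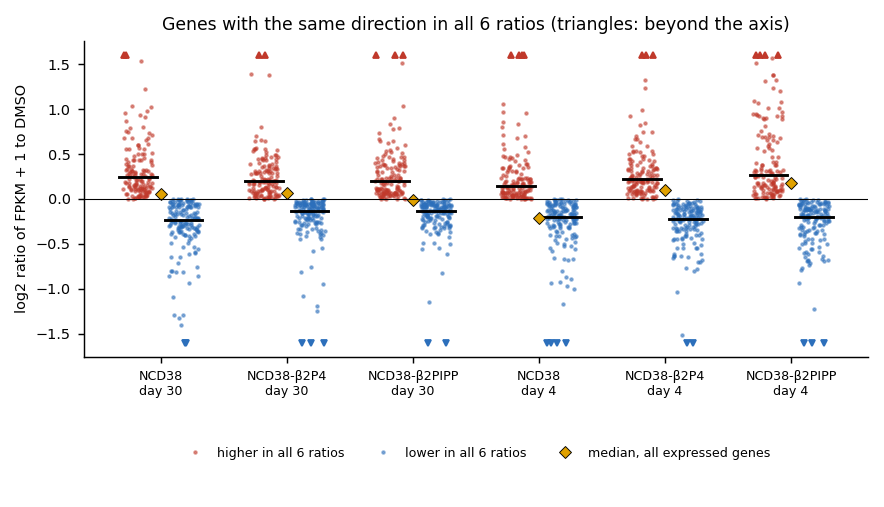
Log2 ratio of FPKM + 1 against DMSO of the same day for each of the 139 higher and 148 lower genes (points) in each of the 6 inhibitor libraries (horizontal axis), with the median marked and values beyond 1.6 drawn as triangles at the edge. The medians of the higher genes lie between 0.139 and 0.269 and those of the lower genes between -0.235 and -0.135.

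With DMSO some of the higher genes, such as CCDC58, were lower on day 4 than on day 30, and others, such as GANAB, were higher. As a set the higher genes had a low median level. Their median mean FPKM was 4.41, against 14.95 for the lower genes and 9.21 over all expressed genes. At least 1 FPKM in all 8 libraries was found for 80 of the 139 higher and 123 of the 148 lower genes. By the rule for named genes, the 12 higher and 12 lower genes with the largest smallest ratio were taken, leaving out short noncoding RNAs and joined gene entries. The 12 higher genes were MTBP, CNFN, STXBP2, LOC100507558, SYNE2, RAD54B, MGC14436, LOC100287082, CCDC58, C6orf120, ANLN and LRR1, and the 12 lower were LOC100652991, LOC100652733, LOC100652940, U2AF1L4, CHAC1, PGPEP1, YPEL3, LOC100127891, ROM1, LAIR2, CD3EAP and SNHG9.

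**Figure D3:**
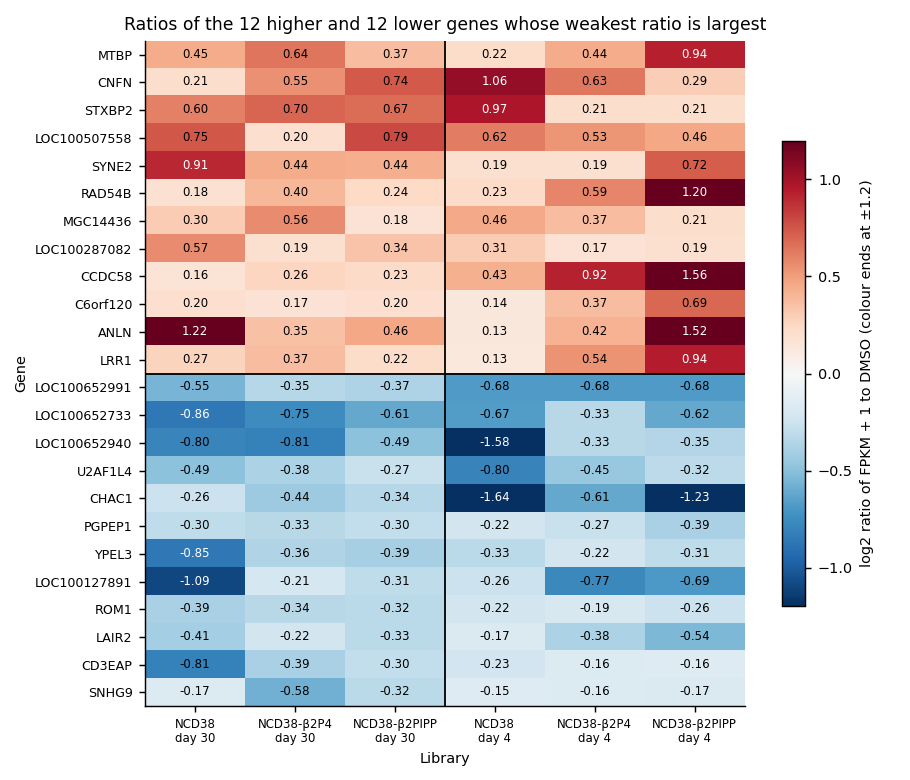
Log2 ratios of FPKM + 1 against DMSO of the same day in the 6 inhibitor libraries (columns) for the 12 higher and 12 lower genes taken by the naming rule (rows), with the colour giving the ratio. Rows are of 1 colour by the choice of genes, and what varies is the size of the ratio between libraries.

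Genes of mitosis were a recurring group among the higher genes. The G2/M list had 53 expressed genes, of which 5 were higher in all 6 ratios (9.43%, against 1.28% of all genes) and 0 were lower. The mean ratio was above 0 in 53 of 53, against 6495 of all 10865 expressed genes. Of the 53, 44 were higher in at least 5 of the 6 ratios, against 2040 of all 10865. The median over the list of the mean ratio was 0.31, against 0.03 over all genes. By library it was 0.869, 0.356 and 0.303 under the inhibitors of day 30 and -0.189, 0.215 and 0.471 under those of day 4. The only library with a median below 0 was thus the NCD38 library of day 4, in which the median of all genes was -0.209. Leaving out NCD38 of day 30 lowered the list median to 0.170 and leaving out NCD38 of day 4 raised it to 0.472. On day 30 alone it was 0.501 and on day 4 alone 0.117. None of the 53 genes passed the test (adjusted p under 0.05, limma), and 0 had an unadjusted p under 0.05 in that fit. In bulk RNA a larger share of cells in mitosis and more of these RNAs per cell cannot be told apart. All 5 members kept their direction after rescaling.

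ANLN, which encodes the actin-binding protein anillin of the cleavage furrow, lies on chromosome 7 (GRCh37 chr7:36429430-36493400, plus strand, 24 exons). Its level was 3.18 FPKM in the vehicle library of day 30 and 8.74 for NCD38, 4.34 for NCD38-β2P4, 4.75 for NCD38-β2PIPP, with 1.09 for the vehicle of day 4 and 1.29, 1.796 and 4.99 for the inhibitors. All inhibitor libraries were above DMSO of their day, the highest being NCD38 on day 30 and NCD38-β2PIPP on day 4. The mean log2 ratio was 0.68 ± 0.55 (SD, n = 6 ratios), with a fitted SE of 0.39 and an adjusted p of 0.9999 (limma). PBK, a kinase active in mitosis, stood at 4.75 FPKM with DMSO and 10.7, 8.07 and 6.97 with the inhibitors on day 30, and 1.73 against 1.905, 2.95 and 6.08 on day 4, with a mean ratio of 0.69 ± 0.45. SMC4, the core ATPase subunit of condensin, stood at 10.1 FPKM with DMSO and 20.7, 14.2 and 12.3 with the inhibitors on day 30, and 0.726 against 0.752, 0.974 and 2.28 on day 4, and its mean ratio was 0.47 ± 0.39. On day 4 the NCD38 library lay close to DMSO for all 3, with ratios of 0.13, 0.09 and 0.02 in the order named.

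NCAPG, another condensin subunit and the member of this list outside the naming rule, stood at 9.697 FPKM with DMSO and 12.1, 12.1 and 13.1 with the inhibitors on day 30, and 0.451 against 0.463, 1.098 and 1.93 on day 4 (0.42 ± 0.34). ARHGAP11A, a gene of dividing cells, stood at 4.24 FPKM with DMSO and 7.405, 5.18 and 4.29 with the inhibitors on day 30, and 0.958 against 0.986, 2.11 and 3.85 on day 4 (0.49 ± 0.50). The ratio with NCD38 on day 4 was 0.01 for NCAPG and 0.02 for ARHGAP11A. All 5 had DMSO levels on day 4 between 0.451 and 1.73 FPKM, against 3.18 and 10.1 on day 30, so the day 4 ratios rest on fewer fragments.

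**Figure D4:**
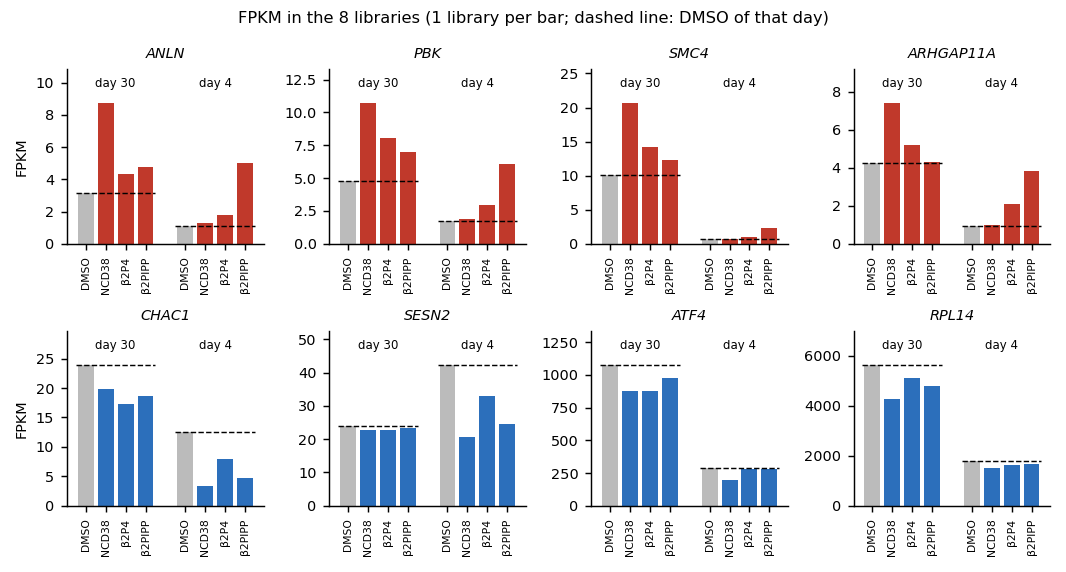
FPKM (vertical axis) in each of the 8 libraries (bars, 1 library each, DMSO in grey, dashed line at DMSO of that day) for 4 higher genes (ANLN, PBK, SMC4, ARHGAP11A) and 4 lower genes (CHAC1, SESN2, ATF4, RPL14), 1 panel a gene with its own axis. ANLN reaches 8.74 with NCD38 on day 30 against 3.18 with DMSO, and CHAC1 falls short of its DMSO line in all 6 inhibitor bars.

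Mitotic promoters often carry the cell cycle homology element, TTTGAA, which the DREAM complex binds. Of ANLN, NCAPG, SMC4 and ARHGAP11A, the letters were present in all but ARHGAP11A within the 300 bases read. PBK had no promoter in the set. The windows below are 30 bases of the RefSeq promoters (GRCh38.p14, strand of the gene, positions counted from the transcript start), with the match in capitals, on either strand. They are shown for the members of the G2/M list that held the letters. The share among the other expressed genes of that list was not taken, so no link to direction is drawn.
ANLN (chr7:36389824-36389853, plus, -38 to -9): tcggcgctgaaaTTCAAATTTGAAcggctg
NCAPG (chr4:17810932-17810961, plus, -47 to -18): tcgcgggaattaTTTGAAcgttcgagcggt
SMC4 (chr3:160399563-160399592, plus, -87 to -58): gccgcactttttTTCAAAttagtggatccc
In ANLN the 2 strands both match, side by side, in NCAPG the match is on the gene's strand and in SMC4 on the opposite strand. Over the 103 higher genes with a promoter of 300 bases the element was present in 15.5%, against 6.42% of the 109 lower genes, 8.8% of 7996 genes with ratios of both signs and 15.4% of all 27305 promoters. The promoter set as a whole holds many genes not expressed in these cells. A match is a string of letters and not a shown binding site.

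Genes of DNA replication and repair that belong to no fixed list were also among the 12. MTBP, which acts with TICRR in origin firing, stood at 3.24 FPKM with DMSO and 4.79, 5.62 and 4.496 with the inhibitors on day 30, and 0.278 against 0.489, 0.737 and 1.45 on day 4, with a mean ratio of 0.51 ± 0.25. RAD54B, a DNA translocase of homologous recombination, stood at 3.73 FPKM with DMSO and 4.36, 5.23 and 4.57 with the inhibitors on day 30, and 0.185 against 0.393, 0.777 and 1.72 on day 4 (0.47 ± 0.39). LRR1, the substrate receptor of the ubiquitin ligase that unloads the replicative helicase, stood at 7.75 FPKM with DMSO and 9.54, 10.3 and 9.22 with the inhibitors on day 30, and 3.69 against 4.13, 5.799 and 8.03 on day 4 (0.41 ± 0.30). For each of them the 3 inhibitors were closer together on day 30 than on day 4 on the log2 scale of FPKM + 1, and NCD38-β2PIPP gave the highest level on day 4. The list of S phase and licensing genes did not show this: of 43 expressed genes 0 were higher and 0 lower in all 6, and the median of the mean ratio was 0.047. Other members with roles in cell division, picked after their values were seen, were PLK4, the kinase of centriole duplication (0.33 ± 0.30), KIFC1, a minus-end kinesin of the spindle (0.26 ± 0.36), DBF4, the activator of the replication kinase CDC7 (0.42 ± 0.38), UBE2T, a ubiquitin-conjugating enzyme of the Fanconi pathway (0.26 ± 0.13), and NEDD1, a spindle anchor of the γ-tubulin ring (0.29 ± 0.22). KIFC1 did not keep its direction after rescaling. On day 4 it exceeded DMSO by 4.3%, 0.6% and 1.1%, against 100.2%, 14.8% and 28.1% on day 30.

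SYNE2, which encodes the nuclear envelope protein nesprin-2, had all 6 ratios beyond counting error. This long gene (GRCh37 chr14:64228617-64693151, plus strand, 116 exons) stood at 2.298 FPKM with DMSO and 5.19, 3.48 and 3.46 with the inhibitors on day 30, and 0.239 against 0.416, 0.418 and 1.05 on day 4, and its mean ratio was 0.48 ± 0.29. CCDC58, a mitochondrial protein, stood at 64.3 FPKM with DMSO and 71.9, 76.9 and 75.5 with the inhibitors on day 30, and 2.58 against 3.805, 5.79 and 9.58 on day 4 (0.59 ± 0.55), and its DMSO libraries were far further apart than any inhibitor from its own DMSO. C6orf120 stood at 3.83 FPKM with DMSO and 4.56, 4.44 and 4.55 with the inhibitors on day 30, and 0.927 against 1.12, 1.49 and 2.11 on day 4. GANAB, a glucosidase of the endoplasmic reticulum that trims glycans, stood at 42.7 FPKM with DMSO and 59.1, 49.6 and 66.1 with the inhibitors on day 30, and 103 against 109, 113 and 108 on day 4 (0.26 ± 0.23). Among the higher genes it was the other protein-coding gene outside the ribosome with 6 ratios beyond counting error. GANAB did not keep its direction after rescaling.

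STXBP2 and CNFN were higher than both DMSO libraries in all 6 inhibitor libraries. STXBP2, a syntaxin-binding protein needed for exocytosis, stood at 4.14 FPKM with DMSO and 6.81, 7.33 and 7.16 with the inhibitors on day 30, and 5.51 against 11.7, 6.56 and 6.53 on day 4. Its mean ratio was 0.56 ± 0.30, and the highest value was that of NCD38 on day 4. CNFN, which encodes cornifelin of the cornified envelope, stood at 2.49 FPKM with DMSO and 3.04, 4.09 and 4.82 with the inhibitors on day 30, and 1.96 against 5.17, 3.58 and 2.63 on day 4 (0.58 ± 0.31). Unlike the mitotic genes, both were highest on day 4 with NCD38.

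Further small groups among the higher genes came from fixed lists. Of 11 expressed inflammatory and NF-κB genes 2 were higher in all 6 (18.2%, against 1.28% of all genes) and 0 lower. The list median was 0.058, against 0.03 over all genes. CSF1, the macrophage growth factor, stood at 0.946 FPKM with DMSO and 1.42, 1.25 and 1.24 with the inhibitors on day 30, and 3.77 against 4.18, 4.23 and 4.37 on day 4 (0.19 ± 0.07), and BIRC3, an inhibitor of apoptosis and NF-κB target, at 1.54 FPKM with DMSO and 2.03, 2.46 and 1.76 with the inhibitors on day 30, and 0.0430 against 0.0567, 0.118 and 0.359 on day 4 (0.22 ± 0.17). Of 269 expressed zinc finger genes 7 were higher (2.60%, against 1.28% of all genes) and 0 lower. The zinc finger median was 0.069, against 0.03 over all genes. It was 0.0084 after subtracting the GC trend and 0.0156 with FPKM at least 1 in all 8 libraries. The 4 higher zinc finger genes with the largest smallest ratio were ZNF224 (0.22 ± 0.16), ZNF77 (0.21 ± 0.14), ZNF567 (0.18 ± 0.10) and ZNF672 (0.19 ± 0.17), a family of DNA-binding proteins. After rescaling 5 of the 7 kept their direction, ZNF672 and ZNF286B being the others. None of the genes of these lists passed the test.

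CHAC1 was lower in all 6 ratios. It encodes an enzyme that degrades glutathione and is a target of ATF4, the transcription factor that cells make when amino acids are short or proteins misfold. CHAC1 (GRCh37 chr15:41245160-41248710, plus strand, 3 exons) stood at 23.9 FPKM with DMSO and 19.8, 17.4 and 18.6 with the inhibitors on day 30, and 12.5 against 3.35, 7.87 and 4.79 on day 4. Every inhibitor library was below DMSO of its day, and the separation was wider on day 4. The mean ratio was -0.75 ± 0.55, with a fitted SE of 0.29 and an adjusted p of 0.9999 (limma), and all 6 ratios were beyond counting error. Without the NCD38 library of day 4 the ratios ran from -1.23 to -0.26.

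ATF4 itself stood at 1076 FPKM with DMSO and 879.7, 879 and 974 with the inhibitors on day 30, and 290.2 against 197, 279 and 281 on day 4 (-0.23 ± 0.19). SESN2, a leucine sensor that restrains mTORC1 and another ATF4 target, stood at 24.02 FPKM with DMSO and 22.8, 22.7 and 23.3 with the inhibitors on day 30, and 42.3 against 20.6, 33.1 and 24.5 on day 4 (-0.38 ± 0.41). On day 30 SESN2 differed from DMSO by less than 0.1 on the log2 scale, so its mean is carried by day 4. The list of ATF4 and amino acid response genes had 25 expressed members, of which 3 were lower in all 6 (12%, against 1.36% of all genes) and 0 higher. The mean ratio was below 0 in 20 and above 0 in 5 (in 4368 and 6495 of all 10865 genes), and the list median was -0.097. By library the list median was -0.086, -0.043 and -0.028 on day 30 and -0.531, -0.058 and -0.172 on day 4 (NCD38, NCD38-β2P4, NCD38-β2PIPP). The value with NCD38 on day 4 stood apart from the others, and the list median was -0.050 without that library. It was -0.184 without NCD38-β2PIPP of day 4, -0.165 without NCD38-β2P4 of day 4 and -0.031 on day 30 alone. Of the related list of endoplasmic reticulum stress genes 1 of 20 was lower in all 6, CRELD2, a chaperone secreted under stress, at 19.5 FPKM with DMSO and 11.2, 18.9 and 17.7 with the inhibitors on day 30, and 16.9 against 16.4, 14.1 and 12.4 on day 4. CRELD2 did not keep its direction after rescaling, and the list had a median of 0.025.

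The CHAC1 promoter is shown because the gene had the largest mean ratio in size among the 3 lower members of this list and holds both of the motifs described here. The 250 bases before its RefSeq start (GRCh38.p14, chr15:40953221-40953470, plus strand, -250 to -1) carry, in capitals, the ATF4-type element TGATGNAA on the opposite strand, and CCAAT on either strand 3 times.
CHAC1: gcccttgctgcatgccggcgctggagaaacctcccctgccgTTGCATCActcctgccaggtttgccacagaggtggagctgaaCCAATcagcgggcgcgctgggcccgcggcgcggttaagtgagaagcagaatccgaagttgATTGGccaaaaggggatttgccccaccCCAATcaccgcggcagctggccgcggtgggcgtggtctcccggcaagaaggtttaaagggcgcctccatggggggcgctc
TGATGNAA was found in 2.75% of the 109 lower promoters, 0.971% of the higher, 1.5% of those with both signs and 3.67% of all. CCAAT was found in 42.2%, 29.1%, 37.3% and 35.7% in that order.

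Ribosomal proteins made up the largest group among the lower genes. Of 85 expressed genes for cytosolic ribosomal proteins 12 were lower in all 6 ratios (14.1%, against 1.36% of all genes) and 1, RPL23A, was higher. The mean ratio was below 0 in 73 and above 0 in 12 (in 4368 and 6495 of all 10865 genes), and the median was -0.155. By library the median was -0.185, -0.030 and 0.008 on day 30 and -0.211, -0.266 and -0.398 on day 4, so the group was close to DMSO with both conjugates on day 30. Leaving out each library in turn gave medians between -0.183 and -0.135, and on day 30 alone it was -0.071. The 12 were RPL14, RPL35, RPL4, RPL27A, RPL24, RPS10, RPL3, RPL19, RPL12, RPL13A, RPS6 and RPL29. After rescaling 6 of the 12 kept their direction in all 6 ratios, while RPL12, RPL13A, RPL19, RPL24, RPL29 and RPS10, and also RPL23A, did not. No gene of the list passed the test (limma). Many of these genes have near-identical processed copies, so the assignment of fragments between them is uncertain.

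RPL14, of the large subunit, stood at 5633 FPKM with DMSO and 4259, 5108 and 4793 with the inhibitors on day 30, and 1796 against 1490, 1633 and 1659 on day 4 (GRCh37 chr3:40498783-40510078, plus strand). All inhibitor libraries were below DMSO of their day and the mean ratio was -0.22 ± 0.11. RPL35 stood at 15145 FPKM with DMSO and 11043, 12301 and 14213 with the inhibitors on day 30, and 8025 against 6904, 4592 and 4198 on day 4 (-0.47 ± 0.34), with the conjugates lowest on day 4. RPL4 stood at 5379 FPKM with DMSO and 4101, 4944 and 4664 with the inhibitors on day 30, and 2973 against 2062, 2802 and 2817 on day 4 (-0.23 ± 0.18) and RPL27A at 579 FPKM with DMSO and 472, 492 and 553 with the inhibitors on day 30, and 300 against 249, 219.9 and 204 on day 4 (-0.31 ± 0.17). RPL23A, the exception, stood at 1842 FPKM with DMSO and 1946, 1971 and 1872 with the inhibitors on day 30, and 1598 against 2378, 1928 and 1703 on day 4 (0.19 ± 0.21). Other abundant transcripts, named after their values were seen, also had 6 ratios beyond counting error. GAS5, a noncoding host of small nucleolar RNAs, stood at 3432 FPKM with DMSO and 2197, 3214 and 3229 with the inhibitors on day 30, and 1226 against 772, 753 and 889 on day 4 (-0.44 ± 0.28) and PFDN5, a subunit of the prefoldin chaperone, at 1165 FPKM with DMSO and 917, 1080 and 1094 with the inhibitors on day 30, and 559 against 415, 358 and 360.4 on day 4 (-0.37 ± 0.24).

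Transcripts of ribosomal protein genes start in a run of C and T that mTORC1 signalling reads in translation. The start windows below (RefSeq GRCh38.p14, 15 bases before to 15 after the start, strand of the gene, with the run in capitals) are shown because they are the sequence feature common to most of this group.
RPL13A (chr19:49487593-49487622, plus): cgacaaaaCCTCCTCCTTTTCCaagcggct
RPL14 (chr3:40457324-40457353, plus): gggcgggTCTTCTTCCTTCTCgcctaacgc
RPL24 (chr3:101686704-101686733, minus): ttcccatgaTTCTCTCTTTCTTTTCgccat
RPL27A (chr11:8682777-8682806, plus): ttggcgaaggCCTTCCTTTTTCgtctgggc
RPL35 (chr9:124861943-124861972, minus): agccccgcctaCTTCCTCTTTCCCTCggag
A run of 7 or more C or T at the start was found in 9 of the 12 lower ribosomal protein genes (75%) and in 49 of 67 expressed ones with a promoter (73.1%), shares close to each other. It was present in 20.2% of all lower promoters, 13.4% of the lower promoters without ribosomal proteins, 12.6% of the higher and 15% of those with both signs.

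Mitochondrial and proteasome genes were few. Of 76 expressed genes of mitochondrial ribosomal proteins 3 were lower in all 6 (3.95%, against 1.36% of all genes) and 0 higher. The list median was -0.039, against 0.03 over all genes. MRPS15 stood at 247 FPKM with DMSO and 214, 219.6 and 228 with the inhibitors on day 30, and 112 against 91.9, 99.3 and 95.98 on day 4 (-0.20 ± 0.06) and MRPL27 at 77.3 FPKM with DMSO and 75.2, 74.5 and 76.2 with the inhibitors on day 30, and 83.6 against 67.5, 52.7 and 51.8 on day 4 (-0.29 ± 0.31), the latter below both DMSO libraries in all 6 inhibitor libraries. MRPS7 had a mean ratio of -0.17 ± 0.10. Of 79 genes of the respiratory chain 3 were lower (3.8%, median -0.048). They were ATP5I, a subunit of the ATP synthase (-0.23 ± 0.13), NDUFA2 of complex I (-0.34 ± 0.28) and COX5B of complex IV (-0.26 ± 0.21). Of 37 proteasome genes 2 were lower (5.41%, median -0.019), PSMD4, a ubiquitin receptor (-0.18 ± 0.08), and PSMC5, an ATPase (-0.12 ± 0.11). On day 30 alone the medians of these 3 lists were above 0 (0.031, 0.057 and 0.089), and without NCD38 on day 4 that of the proteasome was 0.0057. After rescaling ATP5I, COX5B and PSMD4 did not keep their direction in all 6 ratios. No gene of them passed the test.

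PGPEP1, a peptidase that removes pyroglutamate, stood at 9.34 FPKM with DMSO and 7.39, 7.22 and 7.43 with the inhibitors on day 30, and 12.02 against 10.2, 9.79 and 8.94 on day 4. Its 6 ratios lay close together, with a mean of -0.30 ± 0.06, and all were beyond counting error. U2AF1L4, a splicing factor of the U2AF family that the fixed list of splicing factors did not hold, stood at 1.595 FPKM with DMSO and 0.843, 0.993 and 1.16 with the inhibitors on day 30, and 2.85 against 1.21, 1.81 and 2.09 on day 4 (-0.45 ± 0.19). In that list 1 of 29 expressed genes was lower in all 6 (3.45%, against 1.36% of all genes), HNRNPCL1 (-0.10 ± 0.08). The list median was 0.086. YPEL3, a small protein that restrains growth, stood at 14.97 FPKM with DMSO and 7.83, 11.4 and 11.2 with the inhibitors on day 30, and 4.54 against 3.42, 3.75 and 3.48 on day 4 (-0.41 ± 0.23). Its ratio with NCD38 on day 30 was far below the other ratios. CD3EAP, a subunit of RNA polymerase I, stood at 3.704 FPKM with DMSO and 1.68, 2.602 and 2.83 with the inhibitors on day 30, and 2.23 against 1.74, 1.89 and 1.89 on day 4 (-0.34 ± 0.25), again lowest with NCD38 on day 30. ROM1, a membrane protein of photoreceptor outer segments, stood at 2.33 FPKM with DMSO and 1.54, 1.63 and 1.66 with the inhibitors on day 30, and 2.22 against 1.75, 1.82 and 1.69 on day 4 (-0.29 ± 0.08) and LAIR2, a secreted collagen receptor, at 46.5 FPKM with DMSO and 34.7, 39.9 and 36.9 with the inhibitors on day 30, and 43.7 against 38.7, 33.3 and 29.8 on day 4 (-0.34 ± 0.13), and both were below both DMSO libraries in all 6, although LAIR2 did not keep its direction after rescaling. Both p53 targets lower in all 6, of 25 in their list (8.0%, against 1.36% of all genes, median 0.020), are named here. They were SESN2 and PLK3, a stress kinase (-0.10 ± 0.06), of which PLK3 did not keep its direction after rescaling.

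The 12 also held LOC100652991, LOC100652940, LOC100127891, LOC100652733 and SNHG9. LOC100652991 was listed at 0 in 3 libraries, those of the inhibitors on day 4. LOC100652940 was listed at 0.0128 FPKM with NCD38 on day 4. Values at or near 0 can be failed estimates, so the ratios of these 2 entries on day 4 are uncertain. LOC100652733 stood at 2350 FPKM with DMSO and 1293, 1394 and 1538 with the inhibitors on day 30, and 446 against 281, 354 and 291 on day 4 (-0.64 ± 0.18), with an adjusted p of 0.9999 (limma). SNHG9, a host of a small nucleolar RNA, stood at 248 FPKM with DMSO and 221, 166 and 198 with the inhibitors on day 30, and 71.2 against 64.05, 63.5 and 62.98 on day 4 (-0.26 ± 0.17) and did not keep its direction after rescaling. Whether strand was used in counting was not given, so reads of overlapping genes cannot be told apart.

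Short RNAs gave the largest ratios. Of 160 expressed small nucleolar and Cajal body RNAs 4 were higher (2.5%, against 1.28% of all genes) and 2 lower (1.25%, against 1.36%) in all 6. The list median of the mean ratio was 0.2, with 88 means above 0 and 72 below (6495 and 4368 of all 10865 genes). By library the list median was 0, 0 and 0.184 on day 30 and 0, 0 and 0 on day 4. Leaving out each library in turn gave list medians between 0 and 0.2517. SNORD15B stood at 5.16 FPKM with DMSO and 16.8, 37.7 and 32.8 with the inhibitors on day 30, and 6.11 against 8.05, 16.7 and 7.57 on day 4 and SNORA48 at 27.3 FPKM with DMSO and 44.5, 29.97 and 38.04 with the inhibitors on day 30, and 24.98 against 32.9, 34.2 and 41.3 on day 4, both above both DMSO libraries throughout. SNORA8 was listed at 61.5 FPKM with DMSO and 107, 108 and 127 with the inhibitors on day 30, and 0 against 9.77, 10.2 and 36.7 on day 4, and SNORA23 at 16.7 FPKM with DMSO and 20.3, 18.3 and 24.8 with the inhibitors on day 30, and 0 against 9.17, 6.35 and 8.62 on day 4, with DMSO on day 4 at 0 in both. A member with at least 1 library at 0 was seen for 3 higher and 5 lower genes. RNAs of this size are poorly kept by poly(A) selection.

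LSD1 and its partners were not among the 287 genes. KDM1A stood at 41.97 FPKM with DMSO and 46.1, 45.6 and 39.4 with the inhibitors on day 30, and 56.6 against 38.01, 69.9 and 72.1 on day 4 (mean ratio 0.04 ± 0.33), RCOR1 at 4.06 FPKM with DMSO and 5.59, 5.15 and 3.94 with the inhibitors on day 30, and 4.31 against 1.73, 6.46 and 9.52 on day 4, HDAC1 at 66.5 FPKM with DMSO and 71.6, 72.97 and 62.7 with the inhibitors on day 30, and 104 against 80.8, 100.4 and 106 on day 4 and HDAC2 at 10.7 FPKM with DMSO and 11.9, 12.5 and 10.9 with the inhibitors on day 30, and 1.11 against 0.649, 2.14 and 3.57 on day 4. Each had inhibitor libraries on both sides of DMSO. Of 17 expressed genes of the LSD1 and CoREST complex and of 13 other enzymes of H3K4 methylation 0 were higher and 0 lower in all 6, with medians of 0.041 and 0.034. The same counts of 0 and 0 were found for 25 interferon response genes (median 0.025), 6 REST targets (-0.010), 34 clustered histones (-0.081), 25 cholesterol synthesis genes (0.122), 15 heat shock genes (0.182) and 8 genes known to respond to LSD1 inhibitors in other cells (0.009). No gene was higher or lower in all 6 among 9 fatty acid synthesis, 31 hypoxia and glycolysis, 17 NRF2 target, 23 immediate early, 12 YAP and TEAD target, 13 mesenchymal, 8 epithelial, 24 autophagy and 11 circadian genes, with list medians from -0.034 to 0.125. None of these genes passed the test, which does not show that their levels were alike.

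**Figure D5:**
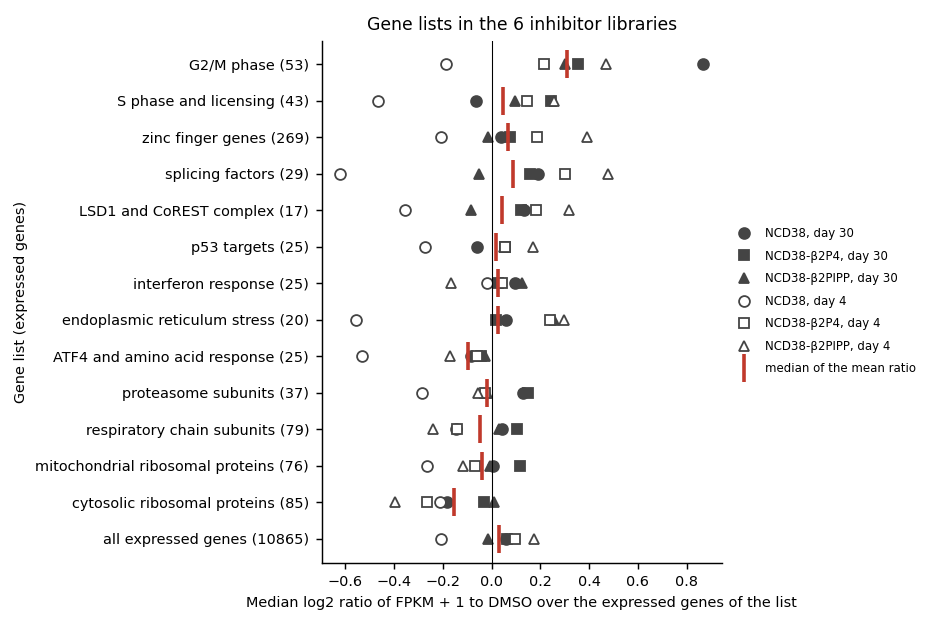
Median log2 ratio of FPKM + 1 against DMSO of the same day (horizontal axis) for gene lists (rows, expressed genes in brackets), with 1 symbol per inhibitor library, filled for day 30 and open for day 4, and a red bar at the median of the mean ratio. The G2/M list reaches 0.869 with NCD38 on day 30 and is at -0.189 with NCD38 on day 4, while the cytosolic ribosomal proteins reach -0.398 with NCD38-β2PIPP on day 4.

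The rule used the direction on both days, so the ratios of the days are given side by side as a description. The median of the mean ratio of day 30 was 0.224 among the higher genes and -0.171 among the lower, and that of day 4 was 0.246 and -0.224. The mean ratio was larger in size on day 30 for 65 of 139 higher and 63 of 148 lower genes. Over all expressed genes it was so for 4831 of 10865. The difference in inhibitor effect between days was called for 25 of all genes (0.23%, limma interaction with each DMSO group a lone library) and none of them was a member, which the choice of members by direction on both days bears on. All 25 called genes were listed at 0 in at least 3 libraries and 23 of them were short RNAs. In many of them, such as MIR126, the only value above 0 was that of 1 DMSO library, so they are not read as a change of effect with time. The 2 DMSO libraries themselves differed by a median of 0.972 in absolute log2 among the higher genes, 0.603 among the lower and 0.834 over all genes. Time of exposure and any other difference between the 2 days cannot be told apart.

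Set against DMSO of either day, 12 of the 139 higher genes (8.63%) were above both DMSO libraries in all 6 inhibitor libraries and 17 of the 148 lower genes (11.5%) were below both. Over all expressed genes the share with either pattern was 0.267%, and any such gene is by construction 1 of the 287. These genes are named for this property, outside the naming rule. The higher ones were C20orf96, CNFN, FSTL3, LPAR2, LTBP4, PDIA5, RNY4, SNORA48, SNORD15B, STXBP2, VAMP1 and ZFP36. FSTL3, a secreted activin inhibitor, had a mean ratio of 0.38 ± 0.27, LPAR2, a receptor for lysophosphatidic acid, of 0.20 ± 0.09, LTBP4, a matrix protein that binds latent TGF-β, of 0.23 ± 0.13, and ZFP36, which speeds decay of AU-rich RNAs, of 0.32 ± 0.15. Among the lower ones were DUSP22, a dual-specificity phosphatase (-0.18 ± 0.11), SAT2, a relative of spermidine acetyltransferase (-0.15 ± 0.08), TRAPPC3, a vesicle tethering subunit (-0.16 ± 0.11), MYCL1, a MYC family member (-0.21 ± 0.17), and MRPL27, ROM1, LAIR2 and SNORA1 as described. After rescaling C20orf96, FSTL3, SAT2 and LAIR2 did not keep their direction in all 6 ratios. All genes of this group were chosen by these values, and no test is attached.

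Between compounds at the same labelled dose, no difference passed the test for any member. Over the 3 pairs of compounds and both days, 3 of all genes were called (0.0276%, limma, Benjamini-Hochberg over genes and the 3 pairs together), MIR1909, MIR196B and MIR659, all listed at 0 in 4 of the 8 libraries. The smallest adjusted p among the 287 members was 0.865. The 95% interval of a difference was wide, with a median half-width of 0.561 on the log2 scale among the higher genes and 0.487 among the lower, so the data leave room for differences of that size. For ANLN the level with the imidazole-bearing conjugate exceeded that with the all-pyrrole conjugate by 0.60 (95% interval -0.64 to 1.85). For CHAC1 the all-pyrrole conjugate differed from NCD38 without a polyamide by 0.42 (95% interval -0.51 to 1.36) and the imidazole-bearing one by 0.17 (95% interval -0.77 to 1.10). For PGPEP1 the same differences were -0.04 (95% interval -0.50 to 0.42) and -0.08 (95% interval -0.54 to 0.38). The highest mean ratio over both days came from NCD38 for 48 higher genes, NCD38-β2P4 for 26 and NCD38-β2PIPP for 65, and the lowest came from them for 77, 30 and 41 of the lower genes, as a description without a test.

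The members' structure was compared without a test. Protein-coding genes were 114 of 126 higher and 113 of 130 lower genes matched to GENCODE, and long noncoding genes 5 and 13. The median length of the canonical transcript was 2882 nt for the higher genes and 1545 nt for the lower, against 2978 nt over all expressed genes, and median GC content was 51.6%, 53.4% and 49.6%. When the trend of ratio on GC content was subtracted within each library, 266 genes were higher and 258 lower in all 6, of which 68 and 62 were among the 139 and 148. The letters for which the polyamides were designed were counted in the same 300 bases. A run of 6 bases of A or T was present in 48.5% of the higher, 49.5% of the lower and 45.2% of promoters with both signs, and CG flanked on each side by 2 of A or T in 11.7%, 19.3% and 18.2%. The E2F-type letters GCGGGAA were present in 18.4%, 7.34% and 11.1%, the E-box letters CACGTG in 9.71%, 12.8% and 10.8%, the GC box GGGCGG in 73.8%, 74.3% and 72.8%, and the ZNF143-type letters ACTACAA in 1.94%, 8.26% and 4.11%, on either strand, with GCGGGAA and GGGCGG able to share bases.

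At the edge of the rule the values were close to 0. Just inside it on the higher side were LOC100652878, MIR3652 and ALOXE3, whose smallest ratio was above 0 by at most 0.0001. Just inside on the lower side, C11orf80, HAGH and YBEY had a ratio nearest to 0 of -0.0001, -0.0001 and -0.0002. Just outside on the lower side, PSMD13 and TMEM14B each had 5 ratios below 0 and a remaining ratio of 0.0003, and MIR4721 was listed at 0 or near it on day 4 in all 4 libraries. Just outside on the higher side, LOC100507004, LOC100653013 and LOC391722 each had 5 ratios above 0 and a remaining ratio of 0.0000 to 4 decimals.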

How the data were processed

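Total RNA of RKO cells was taken 1 time for each of 4 treatments on each of 2 days, and libraries were made with a stranded poly(A) mRNA kit. The authors aligned the reads and deposited the values as FPKM per gene, computed with Cufflinks; the text of the study names TopHat as the aligner, while the submitters' processing notes list HISAT2 2.2.1.0, BWA 0.5.9, bedtools 2.20.1 and the build hg19 without saying which data each served. Labels give a dose of 2 μM for both days, whereas the methods text writes the day 4 dose in millimolar, so the dose of day 4 is uncertain. Groups were taken from the labels, and a single deposited table held all 8 libraries.

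Of 25594 entries, 90 with a repeated name were left out, and of 25504 others 7528 were at 0 in all libraries and 7111 had a mean FPKM under 1, which left 10865. Log2 ratios of FPKM + 1 were taken within each day. The inhibitor effect was fitted with limma 3.58.1 (R 4.3.3, trended eBayes, day as block) on log2(FPKM + 1) and adjusted by Benjamini-Hochberg, with an interaction fit for days and a fit of the 4 treatments for 3 pairs of compounds. A fold on this scale understates the change of low genes. The fit was tested on simulated data. Depth was estimated from the steps between low FPKM values, and counting intervals assumed an effective transcript length with a fragment of 150 nt, and cover counting error only.

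Named genes were (a) up to 10 called genes, (b) 12 genes in each direction with the largest smallest ratio, short noncoding RNAs and joined entries left out, (c) KDM1A, RCOR1, HDAC1 and HDAC2, (d) up to 4 members in each direction of each of 33 gene lists, and (e) 3 genes on each side of the rule's edge. The members, lists and rules were chosen with earlier results of these data known. Positions, lengths and GC content came from GENCODE release 44 lifted to GRCh37 (10309 of 10865 genes matched), promoters from RefSeq on GRCh38.p14 (103 higher and 109 lower genes matched).

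Alternatives tried were pseudocounts of 0.1 and 0.01, other filters on FPKM and transcript length, rescaling to a common centre, subtraction of the GC trend, no day block, no trend in the variance, each library, compound or day left out, and DMSO of the other day.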

Additional observations from a re-analysis of the deposited data

Results flagged for a closer look

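In each group of 6 ratios or list medians, the highest or lowest value was compared with the gap to its neighbour (Dixon's test at the 95% level). Over 67 named genes 4 stood out, and over 29 lists 4 stood out, where chance gives about 1 in 20 groups.

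Among genes, ZNF224 was at 0.54 with NCD38-β2PIPP on day 4, against 0.10 to 0.22 in the other 5 libraries. MIR3652 was at 3.33 in the same library, against 0 to 0.17 elsewhere. YPEL3 was at -0.85 with NCD38 on day 30, against -0.39 to -0.22, and CD3EAP was at -0.81 in that library, against -0.38 to -0.16.

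Among lists, all 4 stood out in the NCD38 library of day 4. The median log2 ratio there was 0.441 for REST targets (others -0.180 to 0.048), -0.531 for ATF4 and amino acid response genes (others -0.172 to -0.028), -0.556 for endoplasmic reticulum stress genes (others 0.019 to 0.296) and -0.624 for YAP and TEAD targets (others 0.036 to 0.306). The median of all genes in that library was -0.209, and its part in these values was not tested.

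The inhibitor effect differed between the days for 25 genes by the interaction test (ratio higher on day 30 for 20 and lower for 5). None belonged to the 287, and all were listed at 0 in 3 to 7 libraries.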

How the results depend on the processing

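The main counts were 0 higher and 1 lower gene in the test of inhibitor against DMSO. The higher count was 1 with a pseudocount of 0.1 or 0.01, after rescaling, without NCD38, NCD38-β2P4 or NCD38-β2PIPP on both days, and on day 4 alone, and 0 to 1 when each library was left out in turn (1 without NCD38-β2P4 of either day). The lower count was 0 with a pseudocount of 0.01, with FPKM at least 1 in all 8 libraries, with a mean of at least 5, with transcripts of at least 500 nt and after subtracting the GC trend, where SNORA1 was not among the genes tested in the last 4 of these. It was 2 without the filter, 2 without NCD38, 3 without NCD38-β2P4, 3 without NCD38-β2PIPP, 9 on day 30 alone and 32 on day 4 alone, and 1 to 2 when each library was left out (2 without NCD38 or NCD38-β2P4 of day 4). Without the replicate block for day the counts stayed at 0 and 1. No paired analysis was possible because the labels give 1 library per treatment and day with no replicate numbers that pair cultures.

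The number higher in all ratios (139) was 322 without the filter, 80 with FPKM at least 1 in all 8, 63 with a mean of at least 5, 266 after subtracting the GC trend, 2172 without NCD38, 266 without NCD38-β2P4, 413 without NCD38-β2PIPP, 2485 on day 30 alone, 735 on day 4 alone and 19 against DMSO of the other day. It was 173 to 1651 when each library was left out, with over 200 without any library other than NCD38-β2P4 of day 4 and 1651 without NCD38 of day 4. The number lower (148) was 292, 258 (GC trend), 896, 316, 374, 1422, 1125 and 34 in that order with the FPKM sets passed over, and 183 to 536 when each library was left out, 536 being without NCD38 of day 4. Fewer ratios had to share a sign where libraries were left out. The count between days (25) was 15 with a mean of at least 5 and 16 after subtracting the GC trend. No called result reversed. Of 1332 values of 67 named genes 36 moved and 2 weakened, and of the list medians 13 moved and 595 did not. ZNF567 was at -0.01 after subtracting the GC trend. Depth limits what can be seen of genes under 1 FPKM.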

Other observations

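The 3 entries whose level differed between compounds were microRNA precursors listed at 0 under some treatments on both days. MIR1909 was listed at 96.2 FPKM (DMSO) and 70.3 (NCD38-β2P4) on day 30, at 90.7 and 124 on day 4, and at 0 with NCD38 and NCD38-β2PIPP on both days. MIR196B was listed at 43.2 and 58.1 with NCD38 and NCD38-β2P4 on day 30, at 91.8 and 95.4 on day 4, and at 0 with DMSO and NCD38-β2PIPP on both days. MIR659 was listed at 23.0 with DMSO and 36.6 with NCD38-β2PIPP on day 30, at 34.3 and 84.9 on day 4, and at 0 with NCD38 and NCD38-β2P4 on both days. The same treatments were at 0 on both days in each case. Since a 0 in such a table can be a failed estimate, no fold is given.

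Among chromosomes, the share of expressed genes with the same direction in all 6 ratios ran from 0.977% on chromosome 20 (3 of 307) to 4.17% on chromosome 21 (4 of 96). On chromosome 17 the lower genes were 17 and the higher 6 of 673, on chromosome 9 they were 10 and 2 of 453, and on chromosome 7 they were 2 and 7 of 509. These are counts with no test.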
